A study of Mus musculus with 16 samples.

Results

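Transcripts of the proteasome and of the pathway that controls its genes were followed in mouse liver across 2 meals and 2 kinds of drinking water. The set holds 34 genes out of 25006 in the count table. It consists of 31 constitutive proteasome subunits and 3 upstream genes, Nfe2l1, Ddi2 and Ngly1. The members were chosen by their place in the complex, but the set was proposed with the transcript levels of these same libraries in the 4 groups known. Differences of members between groups are therefore given as descriptions, without p-values. All 34 members passed the filter on low counts that left 13180 genes, with mean counts per library from 239 reads for Psma5 to 3811 for Ddi2.

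Livers came from C57BL/6 mice, an inbred laboratory strain, that were randomised to plain or antibiotic drinking water. Each received 1 oral gavage of a slurry, either of chow or of fast food, and the liver was collected 4 h afterwards. The groups were chow with control water, fast food with control water, chow with antibiotic water and fast food with antibiotic water, with 4 poly(A) RNA libraries each. Which antibiotics were used, for how long, and the age and sex of the mice are not stated in the sources used here. The labels do not state that each library came from a separate mouse, and if they did not, p-values measure the spread between these samples only, which may be technical.

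The proteasome degrades proteins tagged with ubiquitin. Its core particle is a barrel of alpha and beta subunits, with the catalytic sites on beta subunits inside. The regulatory particle on its ends recognises ubiquitin, removes it and unfolds the substrate with a ring of ATPases. Nfe2l1 encodes a transcription factor, also called NRF1, that is held at the endoplasmic reticulum and degraded while proteasomes work well. When they do not, the factor is extracted, freed of its sugars by the glycanase NGLY1, cut by the protease DDI2 and sent to the nucleus, where with small MAF partners it raises transcription of proteasome subunits. This control acts largely on the protein, which was not measured here.

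Promoter windows of 250 bases before to 50 bases after the transcription start (RefSeq, GRCm38.p6) were matched for 28 of the 34 members, 25 of them subunits. They were searched on both strands for TGACNNNGC, the core of the antioxidant response element that NFE2L1 and its relatives bind, and for TGACTCAGC, a stricter form that is itself a case of the first. The core was in the windows of 4 of 28 members (14.3%), beside 14% of 27025 genes with a window. The stricter form was in 0 of 28 members and in 0.503% of all genes. No match means only that these letters are absent from the window. The 4 stretches that hold the core are shown because they are the only member windows with it, as 100 bases each from 5′ to 3′ on the strand of the gene, with the core in capitals. They lie at chr14:54617996-54618095 (minus strand), chr11:70525257-70525356, chr14:45329574-45329673 and chr11:107479278-107479377 (plus strand), in that order.
Psmb5: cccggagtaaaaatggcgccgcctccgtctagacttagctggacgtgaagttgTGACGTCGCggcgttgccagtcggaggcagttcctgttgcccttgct
Psmb6: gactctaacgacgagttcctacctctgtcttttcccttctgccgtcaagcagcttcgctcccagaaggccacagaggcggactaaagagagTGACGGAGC
Psmc6: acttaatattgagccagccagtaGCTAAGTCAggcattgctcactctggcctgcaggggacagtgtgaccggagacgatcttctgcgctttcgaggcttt
Psmd12: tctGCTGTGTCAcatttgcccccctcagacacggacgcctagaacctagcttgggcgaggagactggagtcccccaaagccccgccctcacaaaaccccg
Psmb5 and Psmb6 encode catalytic beta subunits, and their cores start 47 and 9 bases before the start on the gene's own strand. In Psmc6, an ATPase gene, and Psmd12, a gene of the lid of the regulatory particle, the core reads on the opposite strand, 227 and 247 bases before the start. None of these 4 genes passed the whole-table threshold in any of the comparisons below.

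Library totals ran from 8954378 to 18954655 counts. The share of counts in 4 features taken as a sign of ribosomal RNA reads (Lars2, Mir6236, Gm20594 and Mir6240) is called the ribosomal share here. It was 0.12% to 0.587% in 9 libraries and 2.45% to 8.42% in 7, and all 4 fast food control libraries were among the 9. Whether these reads came from ribosomal RNA was not checked. Scaling factors (TMM) were 0.781 to 0.950 in the chow antibiotic group and 0.923 to 1.101 elsewhere. Acute phase transcripts were highest within their groups in replicate 2 of chow control, replicate 4 of chow antibiotic and replicate 2 of fast food antibiotic. All 7 hepatocyte markers were detected. Their summed level was 92430 to 124000 CPM, the usual unit of counts relative to library size, in chow control and 96290 to 106800 in fast food control. It was 154900 to 214200 CPM in chow antibiotic and 84680 to 143800 in fast food antibiotic. With antibiotic water and chow, 5 of the 7 rose and 1 fell, and of 5 stellate cell markers 3 fell (264 to 477 CPM in sum, against 384 to 485 in chow control). The part of these markers in the differences with chow and antibiotic water, Nfe2l1 included, was not tested. CPM values here are TMM-scaled, and in bulk liver fewer cells of a type and less RNA per cell cannot be told apart.

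Nfe2l1 (ENSMUSG00000038615, GRCm38, chr11:96817414-96829968, minus strand) was low in a single group, chow with antibiotic water. Its level was 107, 99.8, 97.6 and 90.0 CPM in chow control replicates 1 to 4 and 83.3, 91.0, 88.0 and 93.2 CPM in the fast food control libraries. In the chow antibiotic libraries it was 52.9, 54.1, 52.2 and 48.3 CPM, and in the fast food antibiotic libraries 111, 83.4, 102 and 93.0 CPM. Every chow antibiotic library lay below all 12 others, which overlapped one another.

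The order of group means was chow control at 98.6 ± 7.05 CPM, fast food antibiotic at 97.3 ± 11.9, fast food control at 88.9 ± 4.28 and chow antibiotic at 51.9 ± 2.53 (SD, n = 4 each). Neither chow control nor fast food antibiotic differed from fast food control past the threshold below, and those 2 groups were not tested against each other. With chow, antibiotic water went with a log2 fold change of -0.93 ± 0.10 (SE), or 47.4% less Nfe2l1 transcript. With fast food the same change of water went with 0.13 ± 0.10. Fast food against chow gave 0.91 ± 0.10 in antibiotic water and -0.15 ± 0.10 in control water. The difference between the meal effects in the 2 waters was 1.06 ± 0.14. The first, the third and the last of these passed the threshold used over all genes (edgeR, adjusted p of 0.05), and the other 2 did not.

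**Figure D1:**
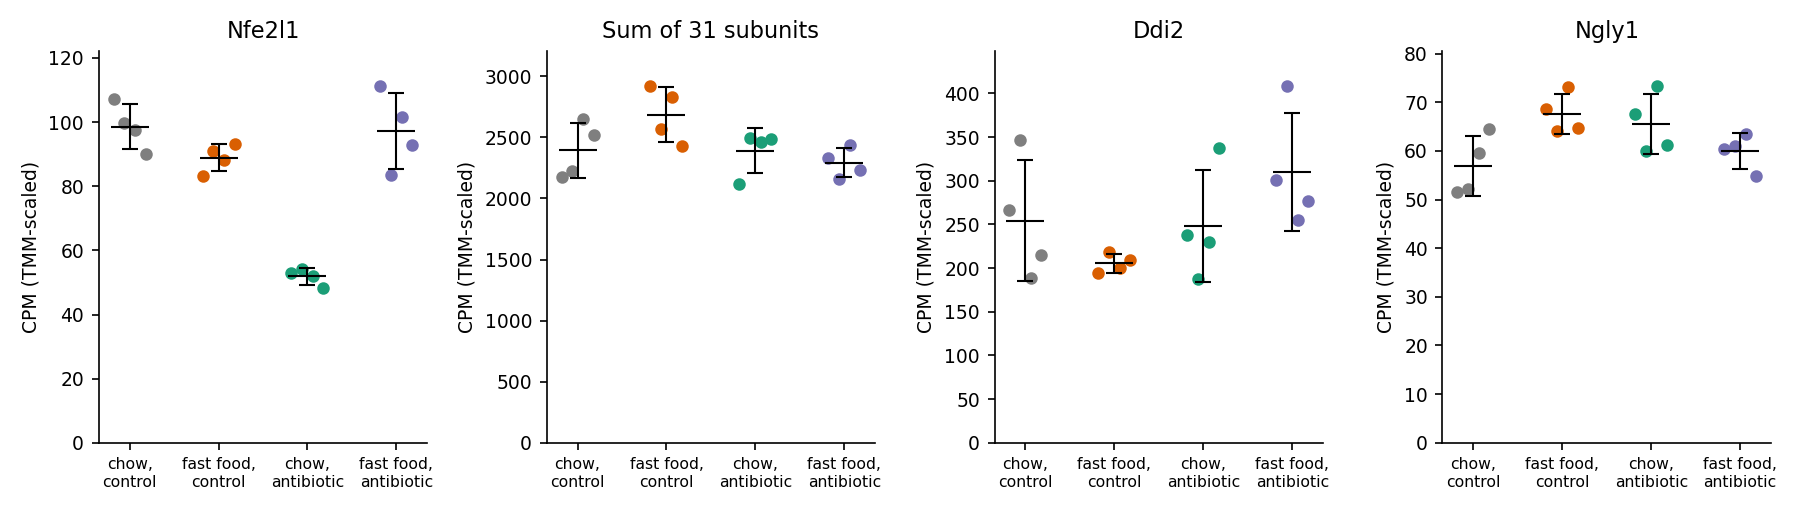
TMM-scaled CPM (vertical axes, from 0) of Nfe2l1, the sum of 31 constitutive subunits, Ddi2 and Ngly1 in the 4 groups. Points are libraries, and bars are the mean ± SD of 4 libraries. Nfe2l1 stands apart at 48.3 to 54.1 CPM in the chow antibiotic group, where the subunit sum of 2115 to 2498 CPM overlaps that of the other groups.

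The calls for Nfe2l1 came out in the same direction and past the threshold under every alternative tried, from -1.17 to -0.86 for antibiotic water with chow and from 0.84 to 1.13 for the meal in antibiotic water. On the 2 sides of a split of libraries at a ribosomal share of 1%, the water difference with chow was -0.83 (2 against 2 libraries, low share) and -1.01 (2 against 2, high share). The 2 comparisons that use the chow antibiotic libraries share them, and the same low values enter both. All alternatives reuse the levels known when the set was proposed, so they show dependence on processing and are no independent test.

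Ddi2, the gene of the protease that cuts NFE2L1, had the highest counts of the set. Its level was 267, 347, 189 and 215 CPM in chow control and 195, 219, 199.6 and 209 CPM in fast food control. It was 238, 187, 230.0 and 338 CPM in chow antibiotic and 301, 408, 255 and 277 CPM in fast food antibiotic. All 4 fast food antibiotic libraries lay above the 4 fast food control libraries, with a log2 fold change of 0.59 ± 0.20 that did not pass the threshold in edgeR. It passed with DESeq2 and in a fit of these 2 groups alone, and came to 0.30 with a term for the ribosomal share. The other differences of Ddi2 were -0.31 ± 0.20 for the meal in control water, 0.32 ± 0.20 for the meal in antibiotic water and -0.035 ± 0.20 for the water with chow. In all 4 groups the highest Ddi2 value was in the library of that group with the most acute phase transcript. The part of acute phase transcripts in the Ddi2 differences was not tested as such, and the value for water with fast food was 0.41 without the 3 libraries named above. Of the exon bases of Ddi2, 18.3% are shared with Rsc1a1 on the same strand, so its counts are uncertain.

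Ngly1, the glycanase gene, varied little and passed the threshold in no comparison. Its mean was 56.9 ± 6.23 CPM in chow control, 67.6 ± 4.15 in fast food control, 65.5 ± 6.15 in chow antibiotic and 59.95 ± 3.64 in fast food antibiotic (SD, n = 4 each). The log2 difference was 0.25 ± 0.10 for the meal in control water and 0.20 ± 0.10 for antibiotic water with chow. It was -0.13 ± 0.10 for the meal in antibiotic water and -0.17 ± 0.10 for antibiotic water with fast food, the last without overlap of the groups. With chow and antibiotic water, where Nfe2l1 was low, Ddi2 and Ngly1 did not differ from control beyond the threshold.

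Subunit transcripts were compared with each other per length, as reads per kilobase of exon scaled to library size (RPKM). On that scale the lowest means over all libraries were 7.0 for Psma3, 8.02 for Psmd11 and 8.11 for Psmb3. The highest were 71.8 for Psma6, 68.1 for Psmb4 and 52.6 for Psmc1, and the median was 27.1. On the same scale Nfe2l1 stood at 15.5, Ddi2 at 26.6 and Ngly1 at 8.27. The sum over the 31 subunits was 2393 ± 228 CPM in chow control, 2686 ± 224 in fast food control, 2391 ± 185 in chow antibiotic and 2291 ± 118 in fast food antibiotic (SD, n = 4 each). The chow antibiotic sum matched that of chow control to within 1 SD, unlike Nfe2l1 in the same libraries.

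Further subunits are given as means ± SD of 4 libraries in the order chow control, fast food control, chow antibiotic and fast food antibiotic. Psma4 had 63.5 ± 5.28, 67.7 ± 5.31, 65.3 ± 3.28 and 60.1 ± 3.87 CPM. Psma7 had 88.7 ± 8.17, 104 ± 13.96, 101 ± 14.4 and 88.4 ± 7.89 CPM. Both are alpha subunits, whose rings gate entry to the core. Psmb7, the gene of the subunit with trypsin-like activity, had 71.3 ± 9.36, 83.9 ± 11.4, 72.2 ± 4.705 and 68.6 ± 5.26 CPM. The beta subunit gene Psmb1 had 104 ± 11.7, 126 ± 11.96, 115 ± 7.78 and 104 ± 6.21 CPM. Psmb3 had 17.1 ± 3.38, 20.9 ± 1.27, 19.3 ± 2.53 and 17.4 ± 2.78 CPM. All 3 had their highest mean in fast food control, as did the other subunits of this paragraph. Among the ATPases, Psmc2 had 71.1 ± 5.83, 72.8 ± 4.52, 66.5 ± 8.42 and 69.6 ± 3.56 CPM. Psmc5 had 55.6 ± 6.62, 60.2 ± 7.16, 55.8 ± 5.24 and 56.2 ± 3.72 CPM. The ATPases unfold substrates and thread them into the core. Psmd4, the gene of a ubiquitin receptor, had 108 ± 10.1, 117 ± 12.1, 96.8 ± 15.3 and 97.6 ± 18.2 CPM. The lid gene Psmd6 had 87.9 ± 11.9, 98.5 ± 8.499, 89.8 ± 9.68 and 86.9 ± 5.79 CPM. Psmd7, whose product pairs with the deubiquitinase, had 37.97 ± 3.099, 43.2 ± 4.14, 40.2 ± 3.97 and 42.2 ± 1.89 CPM. None of these 10 subunits passed the threshold in any comparison. Of the members, 8 share exon bases with another counted gene, from 21 bases in Ngly1 to 405 in Psmb7 apart from Ddi2, so a small part of their reads is uncertain.

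In the comparison where Nfe2l1 was low, antibiotic against control water with chow, 0 of 31 subunits passed the threshold in edgeR. Among all genes 10.6% were called higher and 13.2% lower in this comparison. At an unadjusted p under 0.05 there were 2 of 31 subunits, beside 36.7% of all genes. The median log2 fold change of the subunits was -0.023, and that of all genes -0.0057. Subunit values ran from -0.29 ± 0.13 for Psma5, an alpha subunit, to 0.19 ± 0.11 for Psmd11, a lid subunit, and 15 of 31 were above 0. These are the values that chose the set, so no contrast with Nfe2l1 was tested. Nfe2l1 was the only member without overlap between these groups, where 11.2% of all genes lay entirely higher and 13.6% entirely lower.

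Psma5 had 14.8, 14.01, 16.7 and 17.2 CPM in chow control and 12.7, 11.6, 14.8 and 12.1 CPM in chow antibiotic, with 1 antibiotic library inside the control range. Psmd11 had 46.7, 52.0, 41.6 and 45.6 CPM in chow control and 43.7, 53.3, 51.1 and 65.0 CPM in chow antibiotic, and the groups overlapped. Psmb5, the gene of the subunit with chymotrypsin-like activity, had 23.6, 21.3, 26.0 and 23.1 CPM in chow control against 17.997, 24.3, 20.3 and 21.9 CPM in chow antibiotic. Its difference of -0.16 ± 0.12 was not called. Scaling by library totals alone, without TMM factors, moved the median of all genes to -0.25 and that of the subunits to -0.27, and 11 members were then called lower and none higher, beside 25.5% and 4.29% of all genes. The subunits moved with all genes under that scaling, and their distance from the median of all genes was nearly the same.

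On the 2 sides of the ribosomal split, the mean of the 31 subunits differed by -0.18 (low share) and 0.16 (high share) on the log2 scale between the waters with chow. The sign was not the same on the 2 sides, while that of Nfe2l1 was.

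**Figure D2:**
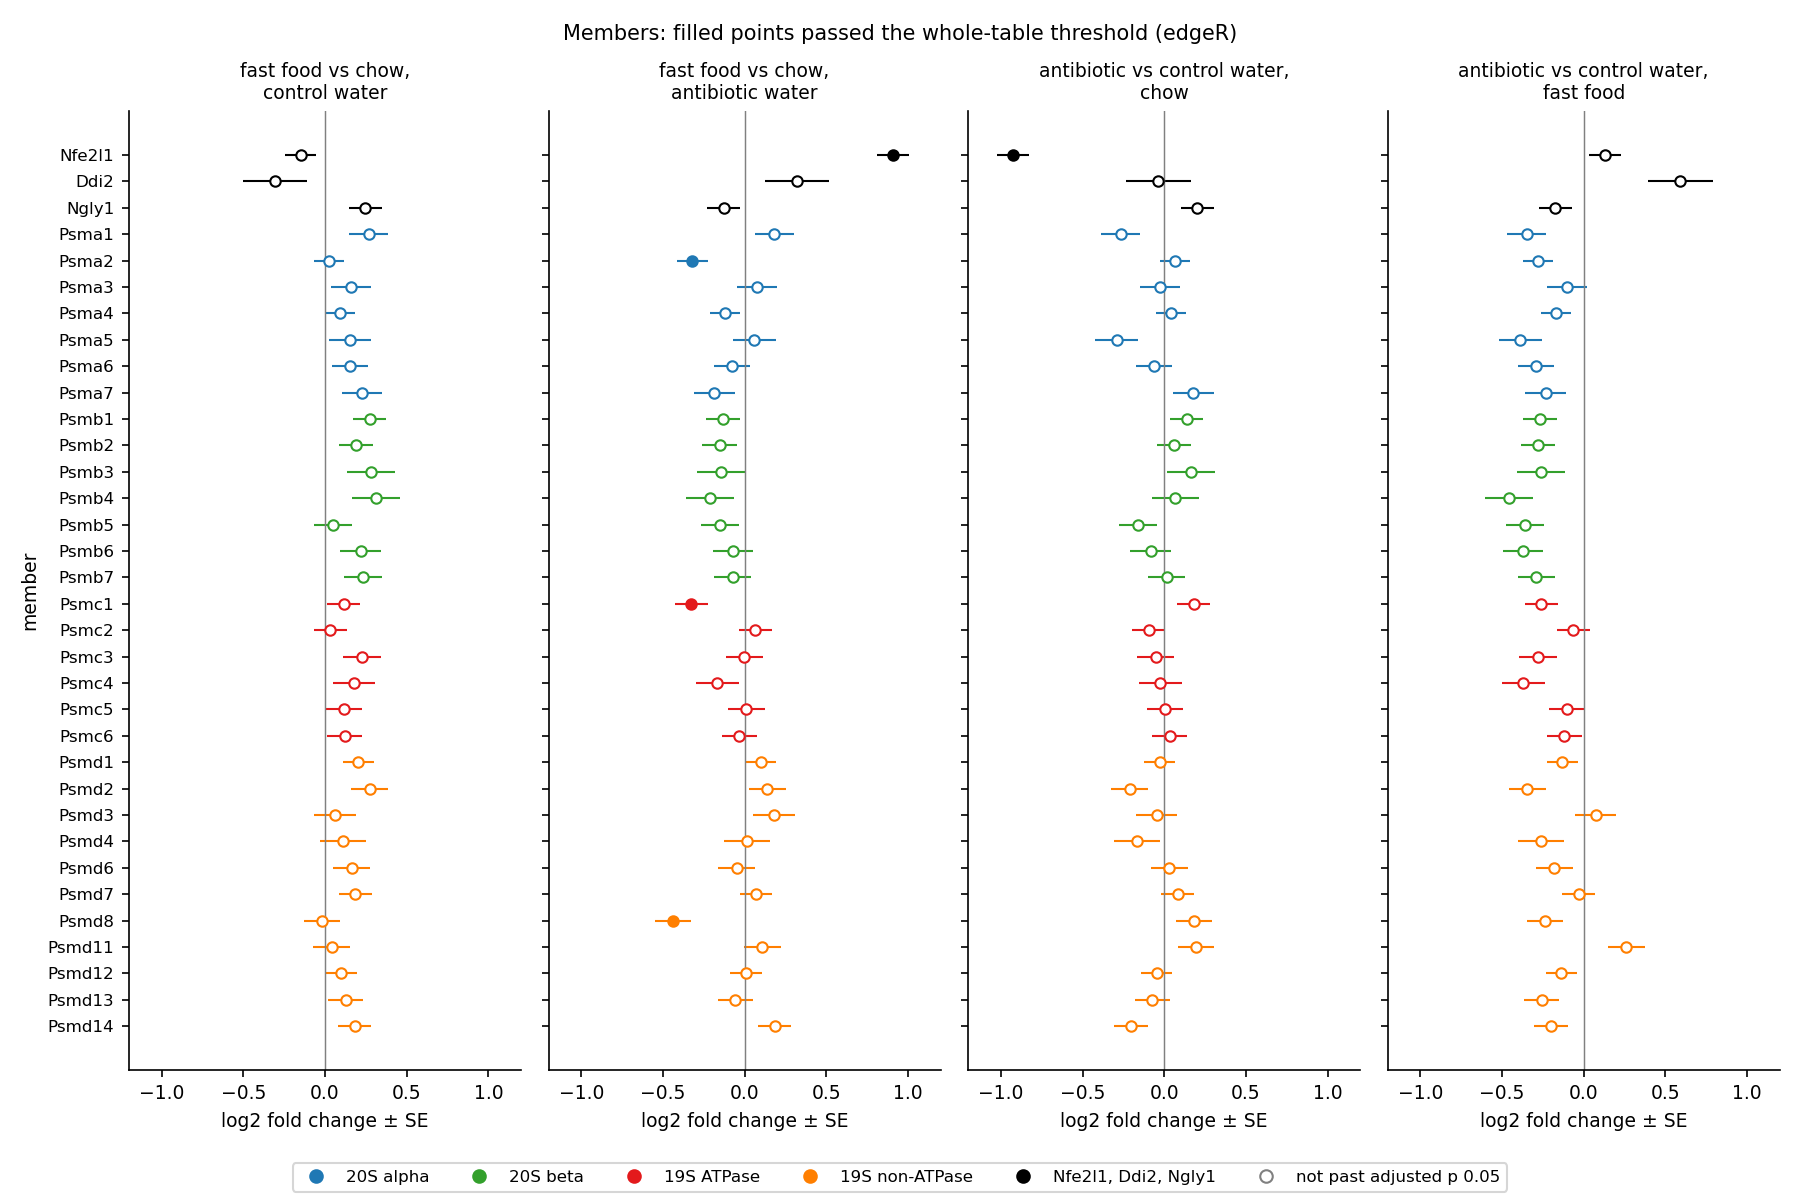
Log2 fold change ± SE (horizontal axes) of all 34 members (rows) in the 4 comparisons of 2 groups. Filled points passed the adjusted p threshold of 0.05 over all genes, and colours mark the parts of the complex. Nfe2l1 lies near 0.9 and -0.9 in the 2 comparisons that use the chow antibiotic libraries, and the subunits lie between -0.46 and 0.31 throughout.

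In antibiotic water, fast food against chow gave higher Nfe2l1 and 3 lower subunits. The groups did not overlap for Psmd8, Psmc1 and Psma2, or for Nfe2l1. Over all genes 7.78% were called higher and 5.87% lower, and 7.78% lay entirely higher and 6.71% entirely lower, and nothing is read from the members' counts beside these shares. Psmd8, a lid subunit, had 116, 145, 130.0 and 153 CPM with chow and 110.3, 92.7, 97.7 and 99.9 CPM with fast food, a log2 fold change of -0.44 ± 0.11. Psmc1, an ATPase, had 102, 121, 111 and 114 CPM with chow and 86.0, 81.8, 99.98 and 89.4 CPM with fast food, or -0.33 ± 0.10. Psma2 had 68.5, 76.5, 77.9 and 72.9 CPM with chow and 56.4, 61.7, 60.3 and 58.7 CPM with fast food, or -0.32 ± 0.09. All 3 differences run opposite to that of Nfe2l1.

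These 3 calls were not firm. Psmd8 lost its call in 5 of 25 alternatives, Psma2 in 8 and Psmc1 in 16. Without replicate 2 of chow antibiotic, or without replicate 4 of fast food antibiotic, Nfe2l1 was the 1 called member. Without replicate 3 of chow antibiotic, or without replicate 1 or 3 of fast food antibiotic, 2 members were called. The median over the 31 subunits was -0.048, beside 0.032 for all genes, and 13 of 31 were above 0. All 7 beta subunits were below 0 and 8 of 11 non-ATPases above it, with Psmd14, the gene of the deubiquitinase, highest at 0.18 ± 0.10. With library totals in place of TMM factors the median of all genes was 0.25 and that of the subunits 0.18, a shift of all genes alike. Then 6 members were called higher and none lower, beside 17.7% and 2.06% of all genes.

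In control water, where Nfe2l1 differed by -0.15 ± 0.10 between the meals, 30 of 31 subunits were higher with fast food than with chow. None of the 34 members passed in edgeR or DESeq2. The shares of all genes called were 0.243% higher and 0.334% lower in edgeR and 1.32% and 1.07% in DESeq2. At an unadjusted p under 0.05 there were 6 of 34 members, beside 11.5% of all genes. The subunit median was 0.16, and that of all genes was -0.024, with 46.1% of all genes above 0. Psmb4, a beta subunit, was highest at 0.31 ± 0.15, with 91.2, 120, 157 and 139 CPM with chow and 181, 148, 166 and 135 CPM with fast food. The only subunit below 0 was Psmd8 at -0.016 ± 0.11.

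Psmd1, a large scaffold subunit of the regulatory particle, was the only member without overlap in this comparison, at 140, 149, 153 and 157 CPM with chow and 180.4, 164, 179.6 and 167 CPM with fast food. Of all genes 5.17% lay entirely higher and 5.15% entirely lower. All 4 fast food libraries had a low ribosomal share, as did 2 of the 4 chow libraries. Among low-share libraries only (2 against 4) the subunit mean differed by 0.052 between the meals, and with a model term for the share the subunit median was 0.13, against 0.16 in the fit without it.

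With fast food, antibiotic against control water gave subunit values that were nearly all negative. The median was -0.26, beside 0.018 for all genes, and 29 of 31 subunits were below 0. The alpha subunits had a median of -0.28, the beta subunits -0.29, the ATPases -0.19 and the non-ATPases -0.18. None of the 34 members passed in edgeR, where 3.77% of all genes were called higher and 2.22% lower. At an unadjusted p under 0.05 there were 18 of 34, beside 26% of all genes, and DESeq2 called 8 members, 1 higher and 7 lower, beside 6.68% and 5.29% of all genes. Nfe2l1 itself differed by 0.13 ± 0.10 here.

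The groups did not overlap for 14 members of 34 in this comparison, 12 lower and 2 higher, beside 8.38% of all genes entirely lower and 9.98% entirely higher. The lower ones were Ngly1 and the subunits Psma1, Psma2, Psma6, Psmb2, Psmb4, Psmb5, Psmb6, Psmc3, Psmc4, Psmd2 and Psmd12, and the higher ones were Ddi2 and Psmd11. Psmb4 was lowest at -0.46 ± 0.15, with 181, 148, 166 and 135 CPM in control water and 111, 104, 132 and 111 CPM in antibiotic water. Psmb6, the gene of the subunit with caspase-like activity, had 122, 96.4, 108 and 89.1 CPM against 86.8, 70.1, 84.8 and 79.6 CPM, or -0.37 ± 0.12. Psmb5 had 27.9, 21.2, 25.8 and 22.6 CPM against 18.8, 17.6, 20.2 and 19.4 CPM, or -0.36 ± 0.12.

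Psmd2, the other large scaffold, which binds shuttle factors, had 180.4, 161, 183 and 157 CPM in control water and 136, 124, 150.5 and 125 CPM in antibiotic water, or -0.35 ± 0.11. Psmd11 ran the other way, at 51.5, 44.4, 49.4 and 45.9 CPM against 60.8, 55.7, 58.0 and 54.7 CPM, or 0.26 ± 0.11. The ribosomal share also differed, since it was low in all 4 control-water libraries and in 1 of 4 antibiotic libraries. With a model term for that share the subunit median was -0.16. The single low-share antibiotic library had a subunit mean 0.12 below that of the control-water libraries on the log2 scale.

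For the meal by water interaction, Nfe2l1 was the only member called, beside 2.36% of all genes called higher and 1.58% lower. None of the 31 subunits passed in edgeR, with 7 at an unadjusted p under 0.05 beside 21.1% of all genes, and DESeq2 called 3 members, 1 higher and 2 lower, beside 4.5% and 4.11% of all genes. The subunit median was -0.20 and that of all genes 0.056. The values ran from -0.53 ± 0.21 for Psmb4 to 0.12 ± 0.18 for Psmd3, while that of Nfe2l1 was 1.06 ± 0.14. With library totals in place of TMM factors the subunit median was 0.019 and that of all genes 0.26.

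Whether subunits follow Nfe2l1 from library to library was then described within groups, after subtraction of each group's mean log2 CPM. No correlation of Nfe2l1 with the subunits over all 16 libraries is given without that step, because the chow antibiotic libraries form a separate cluster in Nfe2l1. Pearson's r between Nfe2l1 and the subunit mean was -0.20 and Spearman's rho -0.30 (n = 16 libraries). Without the 2 libraries farthest from the median of Nfe2l1, fast food antibiotic replicates 1 and 2, r was -0.48. Over the 12 libraries of the other 3 groups, with no group means subtracted, r was -0.45 and rho -0.39, and without the 2 farthest libraries r was -0.28. Leaving out single libraries gave r from -0.40 to -0.076 and from -0.71 to -0.27 for these 2 measures in that order. The 3 groups of the second measure also differed in ribosomal share, which was low in all 4 fast food control libraries.

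Taken one by one, the subunits had r with Nfe2l1 from -0.71 for Psma3 to 0.32 for Psmd13, with a median of -0.15, and 6 of 31 were above 0. Among all other genes 52.1% were above 0 and 7.11% above 0.5, where no subunit lay. The subunits did follow each other. Each subunit's r with the mean of the rest had a median of 0.79 and was above 0.5 for 26 of 31, with Psmc4 highest at 0.93. Of the genes outside the subunits, 9.19% had an r above 0.5 with the subunit mean. Psma3 at 0.078, Psmd11 at 0.26, Psmd3 at 0.33 and Psmc6 at 0.42 followed the others least. The points share libraries, depth and the ribosomal share. Over the 16 libraries, with no group means subtracted, the subunit mean had r of -0.48 (rho -0.65) with the ribosomal share. With the log2 library total it had r of 0.45 (rho 0.35). The part of depth and of the ribosomal share in the values for single subunits was not tested.

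**Figure D3:**
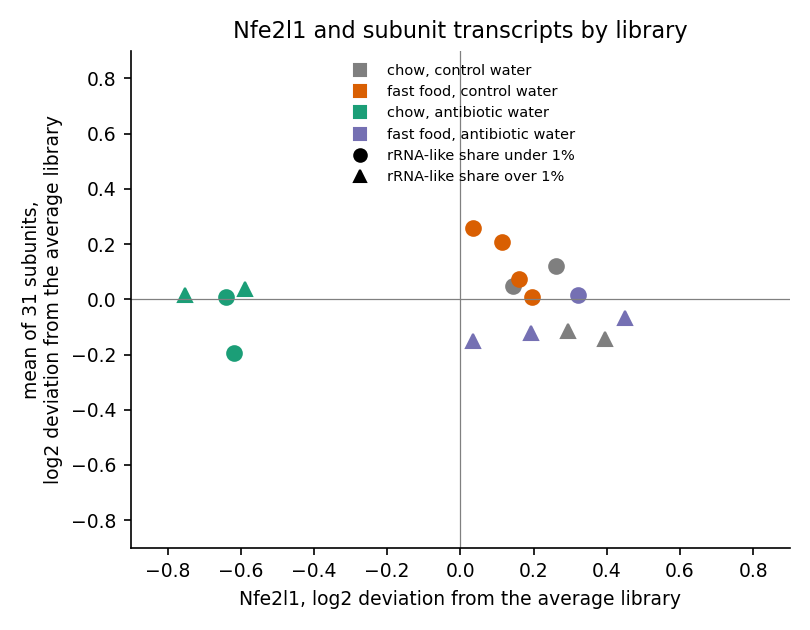
Nfe2l1 (horizontal axis) and the mean of 31 subunits (vertical axis), both as log2 deviation from the average library, with 1 point per library. Colours mark the groups, and triangles mark libraries with a ribosomal share over 1%. The chow antibiotic libraries lie at -0.75 to -0.59 for Nfe2l1 and at -0.19 to 0.036 for the subunits, where the other libraries range from -0.15 to 0.26.

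Over all 16 libraries and 10403 genes whose mean log2 CPM was 1 or more, the genes most like Nfe2l1 by Pearson's r of log2 CPM were Slc36a1, Mtor, Plxnb2, Chad and Pik3r2, in that order. That order rests in part on the separate chow antibiotic cluster, so only the r after subtraction of group means is given for these 5 genes, which was 0.77, 0.59, 0.76, 0.74 and 0.67. With no group means subtracted, the genes outside the complex most like the subunit mean were Retreg2 (r = 0.91), Ech1 (0.88), Fbxo7 (0.88), Ndufa9 (0.88), Rad23b (0.86), Mpdu1 (0.85), Ndufa4 (0.84), Gcdh (0.84), Ccs (0.83) and Oat (0.83). Rad23b encodes a shuttle factor that carries ubiquitylated proteins to the proteasome. Its level ran from 199.9 to 270.2 CPM over the 16 libraries. The named genes were picked as the highest by r over the same libraries. No r given for them is free of that choice, those after subtraction of group means included. These likenesses are descriptions over 16 libraries in 4 groups.

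Other genes of the pathway were taken from lists set by name, with earlier results of these data known. The adjusted p-values given for their genes are to be read with that limit. In immune cells and under interferon, Psmb9, Psmb10 and Psmb8 encode catalytic subunits that replace the products of Psmb6, Psmb7 and Psmb5, and Psme1 and Psme2 encode the PA28 cap. With chow, antibiotic water went with lower Psmb9, Psmb8 and both cap genes. Of 4 tested genes of the immunoproteasome and tissue-specific list, 3 fell and 1 rose, and of 5 caps and inhibitors 2 fell, beside 10.6% of all genes called higher and 13.2% lower. No gene of either list passed in the other comparisons (edgeR). With fast food, Psmb9, Psmb8, Psme1 and Psme2 also had lower means in antibiotic than in control water, without a call. Psmb9 had 6.44 ± 1.35 CPM in control water and 3.61 ± 1.40 in antibiotic water (SD, n = 4 each). Psmb8 had 14.3 ± 2.11 and 9.24 ± 0.89 CPM. Psme1 had 43.8 ± 2.74 and 31.1 ± 2.30 CPM, and Psme2 14.6 ± 2.04 and 10.7 ± 1.88 CPM. Psme3 (33.7 and 38.4) and Psmf1 (24.3 and 24.4) were not lower. The list medians there were -0.47 and -0.10 on the log2 scale.

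Psmb9 had 6.01, 7.49, 21.2 and 11.3 CPM in chow control and 2.17, 2.28, 3.10 and 2.27 CPM in chow antibiotic, so the groups did not overlap. Its log2 fold change was -2.23 ± 0.35 (edgeR adjusted p = 0.000449). Psmb8 had 17.9, 13.7, 49.2 and 21.3 CPM in chow control and 10.1, 9.55, 9.80 and 10.9 CPM in chow antibiotic, or -1.35 ± 0.29 (edgeR adjusted p = 0.00387). Chow control replicate 3 was the highest library for Psmb8 and Psmb9, and without it both genes still passed, at a smaller -0.81 for Psmb8 and -1.75 for Psmb9.

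Psme1 had 57.4, 46.1, 76.3 and 47.2 CPM in chow control and 35.7, 30.2, 27.0 and 38.3 CPM in chow antibiotic, or -0.79 ± 0.15 (edgeR adjusted p = 0.00134). Psme2 had 18.03, 18.3, 26.4 and 16.9 CPM against 12.7, 9.81, 10.03 and 11.2 CPM, or -0.87 ± 0.17 (edgeR adjusted p = 0.00157). These 4 calls held under all 25 alternatives, with adjusted p up to 0.0373 (Psmb8). By contrast Psmb10 (-0.76 ± 0.26, edgeR adjusted p = 0.0439) lost its call in 16 of 25 alternatives and came to -0.37 without chow control replicate 3 (adjusted p = 0.214). Its call also ended in edgeR without 11 other single libraries, which were chow control replicate 1, chow antibiotic replicates 1, 2 and 3, all 4 fast food control libraries and fast food antibiotic replicates 1, 3 and 4, with a log2 fold change of -0.83 to -0.61. Psma8, a testis form of an alpha subunit, stood at 0.694 to 1.07 CPM in chow control and 0.917 to 2.63 CPM in chow antibiotic and rose by 1.08 ± 0.36 (edgeR adjusted p = 0.0376). It lost its call in 11 of 25 alternatives, among them without any single chow control library or without chow antibiotic replicate 2 or 4, with adjusted p up to 0.122.

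**Figure D4:**
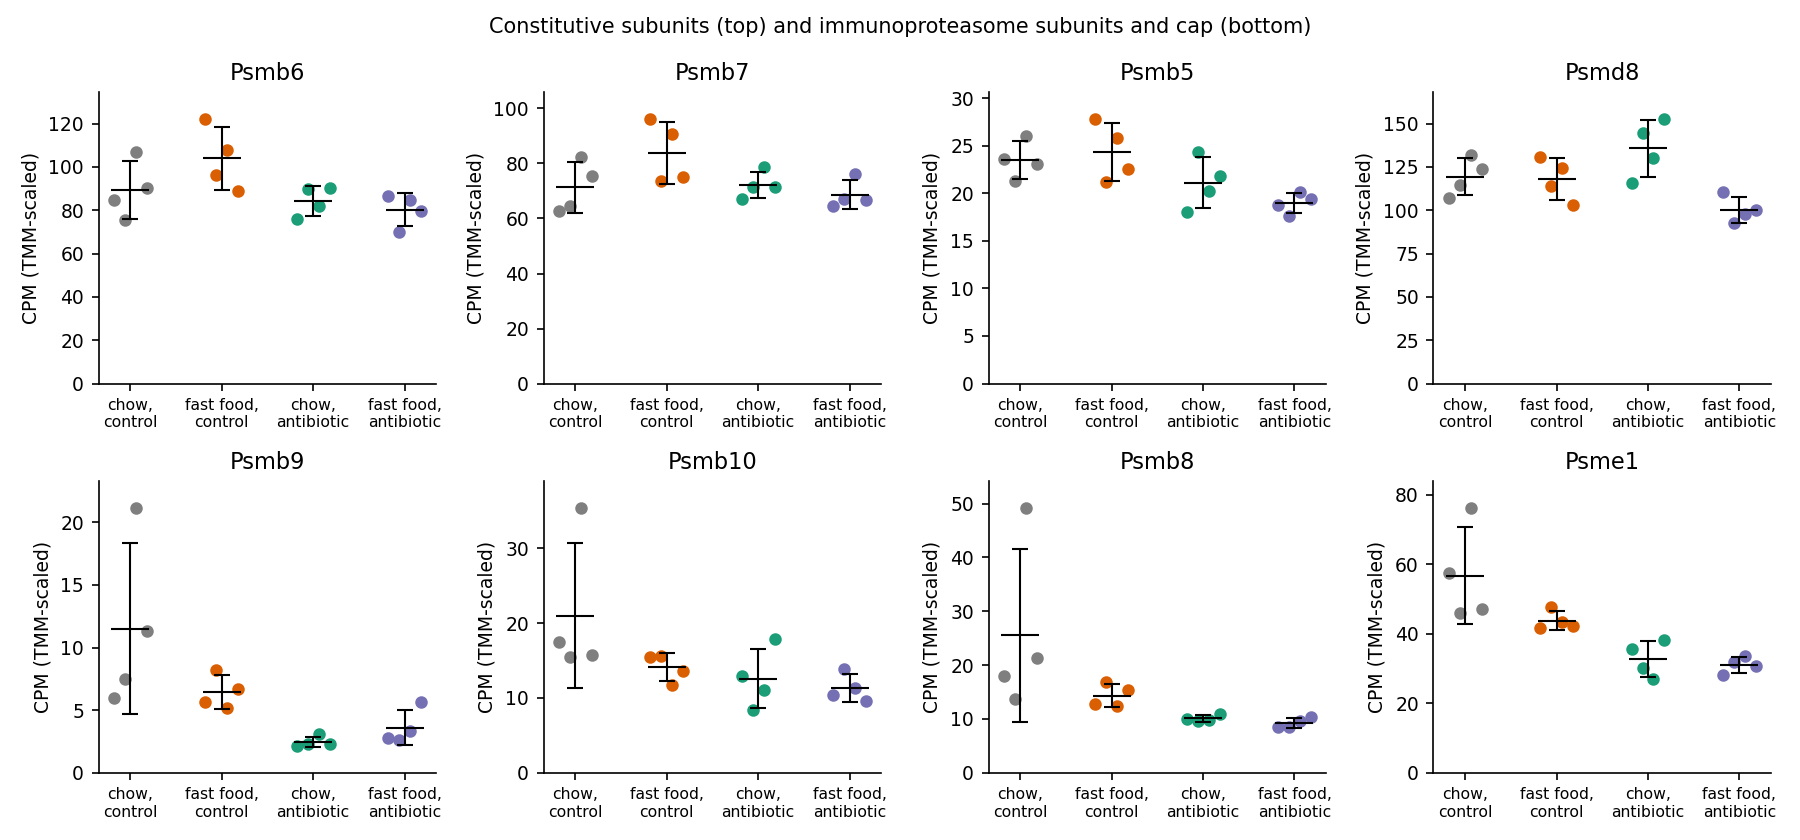
TMM-scaled CPM (vertical axes, from 0) by group. The top row shows the constitutive catalytic subunits Psmb6, Psmb7 and Psmb5 and the lid subunit Psmd8, and the bottom row shows the immunoproteasome subunits Psmb9, Psmb10 and Psmb8 and the cap gene Psme1. Points are libraries and bars the mean ± SD of 4 libraries. Psmb9 lies at 2.17 to 3.10 CPM in chow antibiotic and 6.01 to 21.2 CPM in chow control, and Psmb6 at 75.8 to 90.5 CPM and 75.3 to 107 CPM.

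The constitutive counterparts did not pass in the same comparison, at -0.083 ± 0.12 for Psmb6, 0.016 ± 0.11 for Psmb7 and -0.16 ± 0.12 for Psmb5. Markers of some immune cells were also lower in this comparison, where 10.6% of all genes were called higher and 13.2% lower. Of 10 Kupffer cell and macrophage markers, 8 fell with antibiotic water and chow, and their summed level was 302 to 837 CPM in chow control and 201 to 249 CPM in chow antibiotic. In the libraries given fast food it was 356 to 489 CPM in control water and 181 to 299 CPM in antibiotic water. There 6 of the 10 fell, beside 3.77% of all genes called higher and 2.22% lower. No immunoproteasome or cap gene was called in that comparison, though the means of Psmb9, Psmb8, Psme1 and Psme2 were lower there too. Of 2 tested B cell markers, both fell with antibiotic water and chow, with summed levels of the 4 listed markers of 1.17 to 2.15 and 0.222 to 0.459 CPM. Of 3 tested neutrophil markers none was called with chow, and the 6 listed summed to 1.57 to 9.34 CPM in chow control and 2.98 to 75.4 CPM in chow antibiotic. T and NK cell markers were too low to test, at 0.263 to 3.77 CPM in sum over all libraries. None of these markers was at 0 in every library, and their part in the lower immunoproteasome and cap transcripts was not tested.

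The remaining lists held few calls, and nothing is read from their counts beside the shares of all genes called. Those shares were 7.78% higher and 5.87% lower for the meal in antibiotic water, and 3.77% and 2.22% for water with fast food. Of 4 other regulatory particle genes, Sem1, the smallest lid subunit, fell with fast food in antibiotic water by 0.33 ± 0.095 on the log2 scale (edgeR adjusted p = 0.0318). It lost its call in 8 of 25 alternatives, and with library totals in place of TMM factors the value was -0.0996 (adjusted p = 0.529). The call also ended without replicate 2 of chow antibiotic, and without replicate 1, 3 or 4 of fast food antibiotic (adjusted p up to 0.0916). Of 8 assembly chaperones, Psmd5 fell with antibiotic water and fast food by 0.61 ± 0.13 (edgeR adjusted p = 0.0208). That call ended with a term for the ribosomal share (-0.41, adjusted p = 0.245) and without fast food control replicate 1 or 3 or fast food antibiotic replicate 4 (adjusted p up to 0.072).

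With antibiotic water and chow, 10.6% of all genes were called higher and 13.2% lower. Of 13 relatives and partners of NFE2L1, Maff, a small MAF gene, rose in that comparison by 2.31 ± 0.67 (edgeR adjusted p = 0.0233). Its levels were 5.83, 6.48, 24.9 and 45.6 CPM in chow antibiotic and 2.68 to 5.65 CPM in chow control. Without chow antibiotic replicate 4, the library with the most acute phase transcript in its group, the value was 1.63 (adjusted p = 0.0668). The call also ended without chow antibiotic replicate 3 or chow control replicate 1 or 4. Nfe2l2, the close relative NRF2, stood at 60.2 ± 8.45 CPM in chow control and 51.1 ± 6.39 CPM in chow antibiotic (SD, n = 4 each) and was not called in any comparison.

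Of 12 ubiquitin, E1 and shuttle genes, 2 fell with antibiotic water and chow, beside 10.6% of all genes called higher and 13.2% lower. Uba6, a ubiquitin-activating enzyme, fell by 0.43 ± 0.14 (edgeR adjusted p = 0.0314), and the shuttle factor Ubqln1 by 0.27 ± 0.09 (edgeR adjusted p = 0.0319). Both were lost in several alternatives. For Uba6 these included leaving out chow control replicate 1, 3 or 4 or chow antibiotic replicate 2 or 4 (adjusted p up to 0.0987). For Ubqln1 they included leaving out chow control replicate 1 or 4 or any single chow antibiotic library (adjusted p up to 0.114). No gene of any of these lists was called in the interaction or for the meal in control water.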

How the data were processed

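Poly(A) RNA was counted in 16 mouse liver libraries, 4 per combination of meal and drinking water, from single reads of 50 bases, per the labels. The deposited values are whole-number counts of reads per gene. The genome build GRCm38.p6 and the tools STAR, HTSeq, cutadapt, FastQC, edgeR and DESeq2 are named in the submitters' processing notes. The annotation and strand setting are not stated in the sources used here, so counts of overlapping genes are uncertain. Of 25006 Ensembl identifiers 24942 matched a symbol, and no 2 libraries were identical. Depth was 8954378 to 18954655 counts per library.

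Genes were filtered with filterByExpr (minimum count 10), which left 13180, and scaled with TMM factors. edgeR 4.0.16 (R 4.3.3, limma 3.58.1) fitted quasi-likelihood models with a mean for each group to all 16 libraries. Tests were two-sided, with Benjamini-Hochberg adjustment over all genes tested and a threshold of 0.05. The SE is the absolute log2 fold change over the square root of F. Log2 CPM had a prior count of 2. The test was also run on simulated counts with changes set in the fast food antibiotic group only, and its outcome is not given here. Those counts held no imbalance in ribosomal share or acute phase transcripts, so the run does not speak to these.

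Members and lists were chosen with earlier results of these data known. Named were Nfe2l1, Ddi2 and Ngly1, the called and the extreme subunits of each comparison, up to 3 called genes of lowest p per list, and the 10 and 5 genes most like the subunit mean and Nfe2l1. Further members were named for their role or because their groups did not overlap, after their values were seen. Psmb11 did not pass the filter, and Paaf1 was not matched by name. Alternatives were DESeq2 1.42.0, RLE factors, no filter, a mean of at least 10 counts in every group, fits to 2 groups, the replicate number as a block, a term for the ribosomal share at 1%, leaving out 3 libraries with high acute phase transcripts, and leaving out each library. Library totals without TMM and the correlation over 12 libraries were added after seeing the data. Labels tie the replicate numbers to no shared mouse, batch or day.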

Additional observations from a re-analysis of the deposited data

Results flagged for a closer look

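The difference between the meal effects on Nfe2l1 in antibiotic and in control water (1.056 on the log2 scale) lay past the whole-table threshold, as described above. The set was proposed with these levels known, so this is a description and no independent test. In 3 of 140 groups of 4 values checked, 1 library stood far from the other 3, where chance gives about 1 in 20. These were the subunit mean in chow antibiotic replicate 1 (-0.1927 on the log2 scale, the lowest of its group), Psmc4 in the same library (70.82 CPM, the lowest) and Psmc6 in chow antibiotic replicate 3 (141.6 CPM, the highest). Psmc4 and Psmc6 are ATPase genes of the regulatory particle.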

How the results depend on the processing

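The 3 calls of Nfe2l1 held under all alternatives, and no value with a call changed sign. These alternatives reuse the levels known when the set was proposed and are no independent test of it. For the other summaries 265 of 286 alternative values stayed within the spread or within 1.5 times the count. Called members for the meal in antibiotic water numbered 4, 2 without a filter and 1 in the fit to 2 groups, and 1 to 4 over single libraries left out. For water with chow they numbered 1, 11 without TMM factors, 2 with the ribosomal term and 1 to 2 without single libraries. For water with fast food they numbered 0, 8 with DESeq2, 2 in the fit to 2 groups and 0 to 2 without single libraries. For the interaction DESeq2 called 3 against 1. The shares of all genes called higher and lower in the main fit are given above for each comparison. Without TMM factors they were 4.29% and 25.5% for water with chow. With DESeq2 they were 6.68% and 5.29% for water with fast food and 4.5% and 4.11% for the interaction. For other settings no such shares are given, the replicate block included, so nothing is read from their counts. Without TMM factors the subunit median was 0.1791 (meal, antibiotic water), -0.274 (water, chow) and 0.01879 (interaction), where that of all genes was 0.245, -0.254 and 0.256. Scaling without TMM factors shifts all genes alike by construction, and for the other settings the cause was not tested.

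The correlation of Nfe2l1 with the subunit mean over 12 libraries was -0.719 without the acute phase libraries and -0.713 to -0.274 without single libraries. The planned correlation over 16 libraries was not run as a result. With the replicate block, 0, 3, 1, 0 and 1 members were called in the 5 comparisons in the order of the design (meal in control water, meal in antibiotic water, water with chow, water with fast food, interaction), and Psmc1 lost its call. Same-numbered libraries had deviations with r of -0.222 to 0.359 over 24 pairs, and 1 of 16 correlated best with its own number, so the number was not taken as pairing. With 4 libraries a group, SEs of subunits of about 0.1 limit what could be called.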
